A study of Tetranychus cinnabarinus with 8 samples.

Results

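A set of 137 genes was described that carried a moderate number of sequencing reads in at least 1 of 8 mite libraries and none in at least 1 other library. A gene was a member when its model was 146 bp or longer, when at least 1 library held 20 or more estimated reads of it, and when at least 1 other library did not list it. A gene that a library did not list was taken as 0 reads there. Of 15764 genes listed in any library, 139 met these conditions, and 2 of them (tetur04g01900 and tetur07g05920) were left out by name. A gene was also to be left out where another gene had the same length and the same reads in all 8 libraries, and 0 of these genes had such a copy. The 137 members were 1.2% of the 11412 genes of 146 bp or more with 20 or more reads in a library, and 11273 of those genes were listed in all 8 libraries, the 2 genes left out by name making up the rest. The genes were chosen by their estimated reads and by where they were listed, so the pattern of absence is given as a description, with no test.

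The libraries came from the carmine spider mite Tetranychus cinnabarinus, a plant-feeding pest, in a study of its response to curcumin, the yellow polyphenol of turmeric, which kills mites. The 4 groups, with 2 replicates each, were mites 48 h after curcumin, mites 48 h after the solvent, mites 24 h after curcumin and mites 24 h after the solvent. Curcumin was sprayed at 2.64 mg/mL, and the solvent was water with a detergent and acetone, which the curcumin spray also held. All 8 libraries were from adults of a susceptible strain, 2-day old by the labels and female by the study's methods, reared on cowpea. Each library was a pool of whole mites still alive at collection, so the dead are not represented, and fewer cells of a type cannot be told apart from less RNA per cell. The methods call the 2 replicates biological and take each from its own experiment with several dishes, and p-values measure the spread between these libraries. Reads were mapped to the genome of the related species Tetranychus urticae, whose gene identifiers (tetur, a sequence number, g and a gene number) are used. The libraries held between 8033325 and 8617973 estimated reads over between 14296 and 14777 listed genes. The marker fixed for egg-laying females, vitellogenin 1 (tetur39g00730), a yolk protein, was listed in all 8 libraries, between 1.59 and 23.9 RPKM with a median of 4.45 RPKM. It held 2.7 and 2.7 RPKM in curcumin-treated and 23.9 and 10.9 in solvent-treated mites at 48 h. At 24 h it held 6.2 and 9.7 in curcumin-treated and 2.0 and 1.6 in solvent-treated mites. Its level thus differed between groups, and its listing alone does not measure egg laying. RPKM, as the authors gave it, counts reads scaled by the length of the gene model and by a total of reads of the library. That total was larger than the sum of estimated reads given above.

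In sequencing of messenger RNA, the reads of a transcript are drawn from the whole pool of RNA, so a rare or short transcript may give few reads or none. A listing without a gene therefore states that no read was assigned to its model, and a count of 0 allows up to 3 reads. A transcript that a treatment switches off would be missing in all libraries of that treatment, while one seen only in some replicates would be missing without regard to the labels. Both kinds of pattern were counted.

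Absence went with single replicates in most cases and with a whole treatment in 1 gene. Among the 548 combinations of a member and a group, both replicates listed the gene in 317 (57.8%), 1 of 2 replicates listed it in 194 (35.4%) and neither listed it in 37 (6.75%). Where at least 1 replicate was missing, the other listed the gene in 84.0% of combinations. Genes of 146 bp or more that stayed below 20 reads had 6233 combinations with a missing replicate, of which 55.0% had 1 replicate listed. In 132 of the 137 members (96.4%) at least 1 group was split between its replicates, and in 111 (81.0%) no group was missing in both. With 2 libraries a group, a member missing in 1 library only, as 76 were, must split a group and cannot miss a whole one. These shares, and those of the split combinations above, therefore follow in part from how many libraries missed each gene. Without the curcumin group at 48 h, the other replicate listed the gene in 88.1% of the combinations with a missing replicate in the other 3 groups.

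Only tetur02g00040 was missing in all 4 curcumin libraries and listed in all 4 solvent libraries, and 0 members showed the reverse. For time, 0 members were missing in all 4 libraries at 48 h and listed in all 4 at 24 h, and 0 showed the reverse. For the replicate number, tetur17g03730 was missing in all 4 libraries numbered 1 and listed in all 4 numbered 2, and 0 members showed the reverse. By listing alone, as many genes thus followed the replicate number as followed the treatment, but their reads were not alike. Each solvent library held at least 11.8 reads of tetur02g00040. Libraries numbered 2 held 0.862 reads of tetur17g03730 in the solvent group at 48 h and 1.33 in the curcumin group at 24 h. Both values are within the reads that a count of 0 allows, while the other groups held 30.3 and 18.4.

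The values in all libraries show the same spread. Of the 1096 member values, 268 (24.5%) were missing. A total of 76 members (55.5%) were missing in 1 library, 30 (21.9%) in 2 libraries and 31 (22.6%) in 3 or more. Of these 31, 11 were missing in 3 libraries, 9 in 4, 6 in 5, 2 in 6 and 3 in 7. Most members were therefore read in 6 or 7 libraries and failed in 1 or 2.

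**Figure D1:**
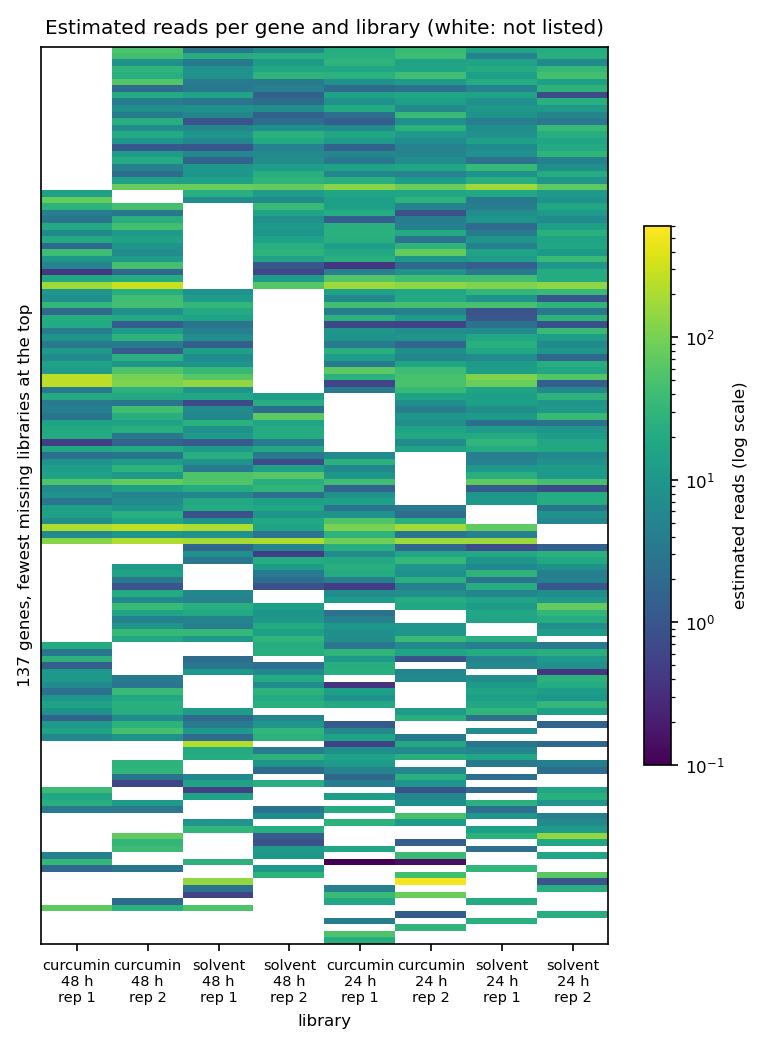
Estimated reads of the 137 genes (rows, fewest missing libraries at the top) in the 8 libraries (columns, 4 groups of 2 replicates), on a log colour scale, with white for a gene that a library did not list. White cells lie scattered over all columns, and replicate 1 of the curcumin group at 48 h has more of them than any other library, 60 of 268.

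The libraries did not miss the same number of members. Replicate 1 of the curcumin group at 48 h missed 60 of 137 (43.8%), against 29 in replicate 2 of that group. The solvent libraries at 48 h missed 41 and 37, the curcumin libraries at 24 h missed 26 and 29, and the solvent libraries at 24 h missed 24 and 22. The first of these libraries stood apart for the members, and 22 of them were missing nowhere else. Over all genes it did not, with 1438 unlisted against 1468 in replicate 1 of the solvent group at 48 h. Of the genes of 146 bp or more below 20 reads, these 2 libraries missed 59.5% and 59.2%. The members missing in both replicates numbered 18 in the curcumin group at 48 h, 7 in the solvent group at 48 h, 4 in the curcumin group at 24 h and 8 in the solvent group at 24 h. Shared absences cannot outnumber those of either replicate, and in replicate 2 of the curcumin group at 48 h they were 18 of 29. The highest reads of a member were in replicate 1 of the curcumin group at 48 h for 8 members and in its replicate 2 for 30, and replicate 1 of the solvent group at 48 h also held them for 8.

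**Figure D2:**
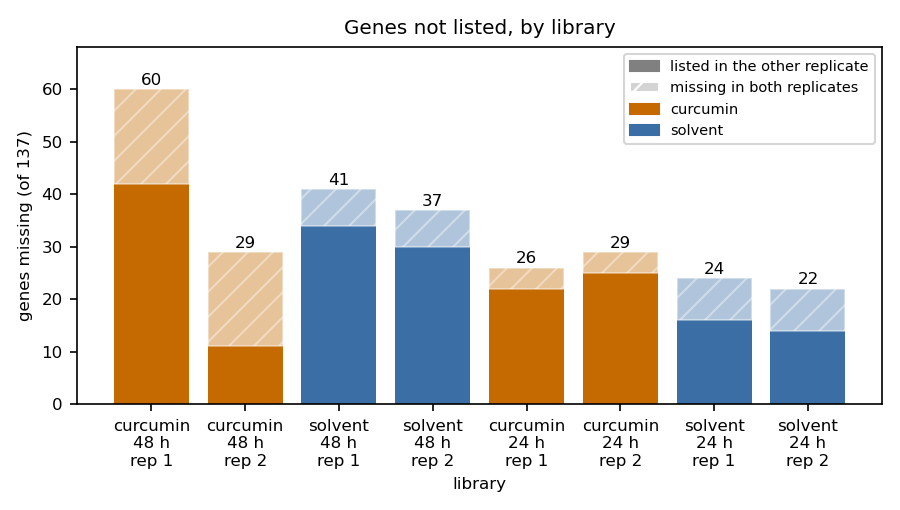
Number of the 137 genes not listed in each of the 8 libraries, with the part missing in both replicates of the group marked off from the part missing in 1 replicate. Replicate 1 of the curcumin group at 48 h missed 60 genes and the other 7 libraries missed between 22 and 41.

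Summed over libraries, 26.3% of member values were missing in curcumin libraries and 22.6% in solvent libraries. By time, 30.5% were missing at 48 h and 18.4% at 24 h, and by replicate number 27.6% in libraries numbered 1 and 21.4% in those numbered 2. Without replicate 1 of the curcumin group at 48 h, chosen for omission after its values were seen, the share was 20.4% in curcumin libraries and thus below the solvent share, and 26.0% at 48 h. The pooled direction by treatment thus turned with 1 library, while the share at 48 h stayed above that at 24 h. That omission also left curcumin with fewer libraries at 48 h than at 24 h, so its pooled share was not balanced over time. Within 48 h, 32.5% of values were missing in curcumin libraries and 28.5% in solvent libraries, and replicate 2 of the curcumin group missed fewer members than either solvent library. Within 24 h, where that library plays no part, 20.1% were missing in curcumin libraries and 16.8% in solvent libraries, and both curcumin libraries missed more members than either solvent library. The library counts at the 2 times met, since replicate 2 of the curcumin group missed 29 members at 48 h and 29 at 24 h. Genes of 146 bp or more below 20 reads were missing in 54.0% of values at 48 h and 46.3% at 24 h, so they too were missing more at 48 h. Over all genes, the libraries at 48 h left between 1178 and 1468 genes unlisted and those at 24 h between 987 and 1254. How far this difference between libraries entered the members' absences was not tested.

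Where a member was missing, its other replicate often held reads. For the 268 missing values, the other replicate was also at 0 for 74, held up to 3 reads for 38, over 3 and under 20 reads for 90, between 20 and under 50 for 50, and 50 or more for 16. The median of the other replicate where it listed the gene was 11.9 reads. In 66 cases (24.6%) a replicate without the gene stood beside one with 20 reads or more.

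**Figure D3:**
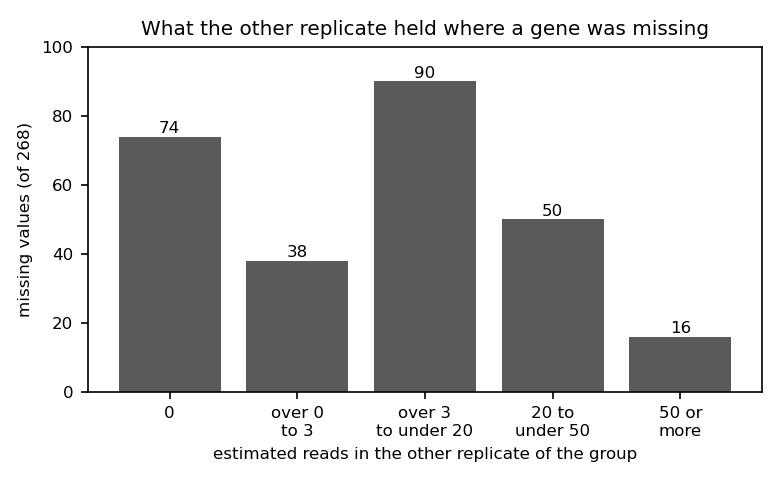
For the 268 cases in which a library did not list a gene, the number of cases (vertical axis) by the estimated reads of that gene in the other replicate of the same group (horizontal axis, 5 ranges). The other replicate held no reads in 74 cases and 50 or more in 16.

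The gene tetur04g07240 (420 bp), annotated to RNA degradation, the pathway that breaks down messenger RNA, had the most reads of any member in a single library. It held 0 and 0 reads in curcumin-treated mites at 48 h, 148 and 0 in solvent-treated mites at 48 h, 0 and 523 in curcumin-treated mites at 24 h, and 0 and 1.00 in solvent-treated mites at 24 h. Nearly all of its reads thus came from 1 replicate of each of 2 groups. Within the curcumin group at 24 h, replicate 2 was at least 179-fold higher than replicate 1, taking 3 reads as the limit for the replicate at 0.

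The gene tetur05g06160 (381 bp) had 0 and 0 reads in curcumin-treated mites at 48 h, 218 and 0 in solvent-treated mites at 48 h, 0.598 and 19.2 in curcumin-treated mites at 24 h, and 2.95 and 1.90 in solvent-treated mites at 24 h. Replicate 1 of the solvent group at 48 h was at least 72.7-fold above replicate 2, by the same limit. Again 1 library held most of the reads.

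Some members were well covered in 7 libraries and missing in 1. The 5 of these whose lowest value among the 7 listed libraries was highest follow. The gene tetur16g00100 (2511 bp, the longest member) had 123 and 209 reads in curcumin-treated mites at 48 h, 195 and 205 in solvent-treated mites at 48 h, 90.5 and 165 in curcumin-treated mites at 24 h, and 164 and 0 in solvent-treated mites at 24 h. Its 7 other libraries were all above 90 reads, and replicate 1 of the solvent group at 24 h was at least 54.4-fold above replicate 2.

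The gene tetur615g00020 (297 bp) had 0 and 82.1 reads in curcumin-treated mites at 48 h, 82.7 and 73.1 in solvent-treated mites at 48 h, 127 and 85.2 in curcumin-treated mites at 24 h, and 174 and 69.3 in solvent-treated mites at 24 h. It was missing only in the library with the most absent members. The gene tetur03g03740 (989 bp) had 31.7 and 45.2 reads in curcumin-treated mites at 48 h, 32.1 and 0 in solvent-treated mites at 48 h, 43.3 and 47.5 in curcumin-treated mites at 24 h, and 48.3 and 29.4 in solvent-treated mites at 24 h. Its 7 listed values lay close together, and the missing one had a replicate in the same range.

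The gene tetur66g00140 (201 bp) had 175 and 301 reads in curcumin-treated mites at 48 h, 0 and 59.9 in solvent-treated mites at 48 h, 170 and 137 in curcumin-treated mites at 24 h, and 112 and 135 in solvent-treated mites at 24 h. Its RPKM was higher in all 4 curcumin libraries than in all 4 solvent libraries, and its single absence fell in a solvent library. The gene tetur418g00020 (408 bp) had 253 and 99.8 reads in curcumin-treated mites at 48 h, 62.4 and 0 in solvent-treated mites at 48 h, 25.9 and 47.5 in curcumin-treated mites at 24 h, and 110 and 58.9 in solvent-treated mites at 24 h. Its curcumin libraries were above the solvent libraries at 48 h and below them at 24 h.

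Among the members with a known product, calnexin (tetur611g00020, 378 bp), a chaperone of the endoplasmic reticulum membrane that binds newly made glycoproteins, differed widely between replicates. It had 250 and 112 reads in curcumin-treated mites at 48 h, 147 and 0 in solvent-treated mites at 48 h, 0.626 and 48.7 in curcumin-treated mites at 24 h, and 85.3 and 1.33 in solvent-treated mites at 24 h. In 3 of the 4 groups 1 replicate held many reads and the other at most 1.33, and at 48 h the solvent replicates differed by at least 48.9-fold.

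Beclin 1 (tetur107g00030, 300 bp), a protein that starts autophagy in animals, had 40.9 and 7.12 reads in curcumin-treated mites at 48 h, 0 and 27.7 in solvent-treated mites at 48 h, 19.2 and 73.4 in curcumin-treated mites at 24 h, and 14.9 and 11.3 in solvent-treated mites at 24 h. It was missing in 1 solvent replicate, and the replicates of each group differed widely except in solvent-treated mites at 24 h. The gene described as PMP1-like (tetur14g03800, 297 bp) had 75.6 and 0 reads in curcumin-treated mites at 48 h, 6.93 and 5.94 in solvent-treated mites at 48 h, 13.4 and 27.3 in curcumin-treated mites at 24 h, and 3.34 and 8.48 in solvent-treated mites at 24 h. Its highest and its missing value were the replicates of the same group, at least 26.3-fold apart.

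The unnamed gene tetur13g00050 (660 bp), annotated to glycolysis, the breakdown of glucose, and to pyruvate and purine metabolism, had 208 and 257 reads in curcumin-treated mites at 48 h, 208 and 15.9 in solvent-treated mites at 48 h, 106 and 177 in curcumin-treated mites at 24 h, and 72.1 and 0 in solvent-treated mites at 24 h. Its 2 lowest values were in solvent libraries, each beside a replicate with many reads. Names were looked up only in the study's lists of differentially expressed genes. These held 29 of the 137 members, and 148 genes of 146 bp or more in all. The lists and the choice of members rest on the same libraries, so nothing is read from this count. Among these 29, 4 carried a name other than hypothetical protein, the scaffold protein below among them.

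The member that followed treatment was tetur02g00040, a 183 bp gene model annotated to MAPK signalling, the kinase cascade that passes signals from the cell surface, and to cation channel complexes, which let ions such as calcium cross membranes. It is 1 of 2 members for which the study designed primers, and these are shown because they are the sequences of the members at hand, in lower case, 5′ to 3′, forward and then reverse.
tetur02g00040 forward: ccaaacttgggtcttcaagtattc
tetur02g00040 reverse: gcccaaagaagtgaatcaaa
tetur16g02830 forward: gtttgactgggaagcaaagg
tetur16g02830 reverse: tgtcgatggtgtgttatgttga

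Reads of tetur02g00040 were 0 and 0 in curcumin-treated mites at 48 h, 30.6 and 22.3 in solvent-treated mites at 48 h, 0 and 0 in curcumin-treated mites at 24 h, and 14.0 and 11.8 in solvent-treated mites at 24 h. Curcumin and solvent libraries did not overlap at either time. The solvent libraries averaged 13.3 ± 3.3 RPKM at 48 h and 6.02 ± 0.809 RPKM at 24 h (SD, n = 2 each). Summed over 4 libraries each, curcumin held 0 reads and solvent 78.8, and taking 3 reads as the limit for the curcumin sum, curcumin was at least 26.8-fold lower. The same bound was at least 18.5-fold at 48 h and at least 8.56-fold at 24 h. Here and below, bounds between groups take reads summed over replicates and do not cover the spread between replicates. In edgeR (quasi-likelihood test, Benjamini-Hochberg adjustment over 12227 genes) the adjusted p was 0.0549 at 48 h, 0.373 at 24 h and 0.0512 for the average of both times, none of which passed 0.05. Over the other settings tried, these ranged between 0.000493 and 0.262 at 48 h, between 0.0142 and 1.0 at 24 h and between 0.000397 and 0.357 for the average. The gene was chosen in part for this pattern, and with 2 replicates the call depended on the tool.

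The second gene with primers, tetur16g02830 (278 bp), had 1.92 and 2.91 reads in curcumin-treated mites at 48 h, 0 and 10.3 in solvent-treated mites at 48 h, 0 and 0 in curcumin-treated mites at 24 h, and 30.5 and 0 in solvent-treated mites at 24 h. Both solvent groups were split between their replicates, and no comparison of curcumin and solvent separated the libraries.

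At 48 h, 6 members were missing in both curcumin libraries and listed in both solvent libraries, and 1 was missing in both solvent libraries and listed in both curcumin libraries. Beside tetur02g00040, the 6 were tetur288g00010, tetur20g02870, tetur437g00020, tetur24g00700 and tetur33g00360. The gene tetur288g00010 (1017 bp) had 0 and 0 reads in curcumin-treated mites at 48 h, against 21.6 and 28.0 in solvent-treated mites at 48 h, and it had 15.5 and 23.1 in curcumin-treated mites at 24 h, against 16.9 and 0 in solvent-treated mites at 24 h. At 48 h it was at least 17.4-fold lower in curcumin-treated mites, yet 1 solvent library at 24 h did not list it either. The gene tetur437g00020 (447 bp) had 0 and 0 reads in curcumin-treated mites at 48 h, against 3.03 and 21.8 in solvent-treated mites at 48 h, and it had 18.8 and 33.2 in curcumin-treated mites at 24 h, against 9.0 and 19.8 in solvent-treated mites at 24 h. It was missing only in the curcumin group at 48 h, at least 8.7-fold below the solvent group.

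The remaining 3 had fewer reads. The gene tetur20g02870 (411 bp) had 0 and 0 reads in curcumin-treated mites at 48 h and 20.6 and 3.90 in solvent-treated mites at 48 h. The gene tetur33g00360 (627 bp) had 0 and 0 reads in curcumin-treated mites at 48 h and 7.82 and 0.501 in solvent-treated mites at 48 h. The gene tetur24g00700 (609 bp) had 0 and 0 reads in curcumin-treated mites at 48 h and 1.91 and 5.04 in solvent-treated mites at 48 h. For tetur33g00360 and tetur24g00700 at least 1 solvent library was itself within the 3 reads that a count of 0 allows.

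In the opposite direction, tetur03g03690 (878 bp) had 24.3 and 10.5 reads in curcumin-treated mites at 48 h, against 0 and 0 in solvent-treated mites at 48 h, and it had 0 and 7.66 in curcumin-treated mites at 24 h, against 25.7 and 9.46 in solvent-treated mites at 24 h. It was at least 11.1-fold higher in curcumin-treated mites at 48 h, and at 24 h the curcumin libraries lay below the solvent libraries.

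At 24 h, 2 members were missing in both curcumin libraries and listed in both solvent libraries, and 4 were missing in both solvent libraries and listed in both curcumin libraries. Beside tetur02g00040, the first kind held tetur118g00010 (765 bp), annotated to the cell cycle and oocyte meiosis, the division that forms eggs. It had 0 and 72.4 reads in curcumin-treated mites at 48 h, against 0 and 1.25 in solvent-treated mites at 48 h, and 0 and 0 in curcumin-treated mites at 24 h, against 25.6 and 147 in solvent-treated mites at 24 h. It was at least 57.1-fold lower in curcumin-treated mites at 24 h, but at 48 h both groups were split, with replicate 1 missing in each.

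The gene tetur06g06661 (363 bp) had 0 and 0 reads in curcumin-treated mites at 48 h, against 0.587 and 0 in solvent-treated mites at 48 h, and it had 35.7 and 81.1 in curcumin-treated mites at 24 h, against 0 and 0 in solvent-treated mites at 24 h. Its reads were almost confined to the curcumin group at 24 h, whose mean was 13.7 ± 7.73 RPKM (SD, n = 2). There it was at least 39.2-fold higher than in solvent-treated mites at 24 h, and curcumin-treated mites at 48 h were at least 39.0-fold lower than those at 24 h. This was the only member called by edgeR at a false discovery rate of 0.05, in a comparison (48 h against 24 h within curcumin) where 0.425% of all genes tested were called. It met the read limit and the filter on low counts only through the curcumin group at 24 h, the group this comparison tests, so the call is not independent of how the gene was chosen. Its adjusted p for 48 h against 24 h within curcumin was 0.0419 (quasi-likelihood test, Benjamini-Hochberg adjustment, between 0.000178 and 0.263 over the other settings), and that for curcumin against solvent at 24 h was 0.181, between 0.00046 and 0.999 over the other settings. The call was lost when any 1 library of the curcumin group at 48 h, the curcumin group at 24 h or the solvent group at 24 h was left out, and without the filter on low counts.

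The 3 other genes missing in both solvent libraries at 24 h had lower values. The gene tetur20g00090 (759 bp) had 0 and 0.622 reads in curcumin-treated mites at 48 h, against 15.0 and 23.2 in solvent-treated mites at 48 h, and it had 4.11 and 9.67 in curcumin-treated mites at 24 h, against 0 and 0 in solvent-treated mites at 24 h. The curcumin libraries were thus below the solvent libraries at 48 h and above them at 24 h, by at least 4.62-fold at 24 h. The gene described as a scaffold protein, a kind of protein that holds others together (tetur02g05380, 146 bp), had 5.72 and 8.79 reads in curcumin-treated mites at 48 h, against 2.07 and 26.6 in solvent-treated mites at 48 h, and it had 15.7 and 3.39 in curcumin-treated mites at 24 h, against 0 and 0 in solvent-treated mites at 24 h. It was at least 6.41-fold higher in curcumin-treated mites at 24 h. The gene tetur01g12310 (2015 bp) had 0.0528 and 0.142 reads in curcumin-treated mites at 24 h and 0 and 0 in solvent-treated mites at 24 h, all within the 3 reads that a count of 0 allows, so no difference was detectable at this depth. It met the limit of 20 reads through replicate 1 at 48 h. There it had 32.6 and 0 reads in curcumin-treated mites and 27.0 and 0 in solvent-treated mites.

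**Figure D4:**
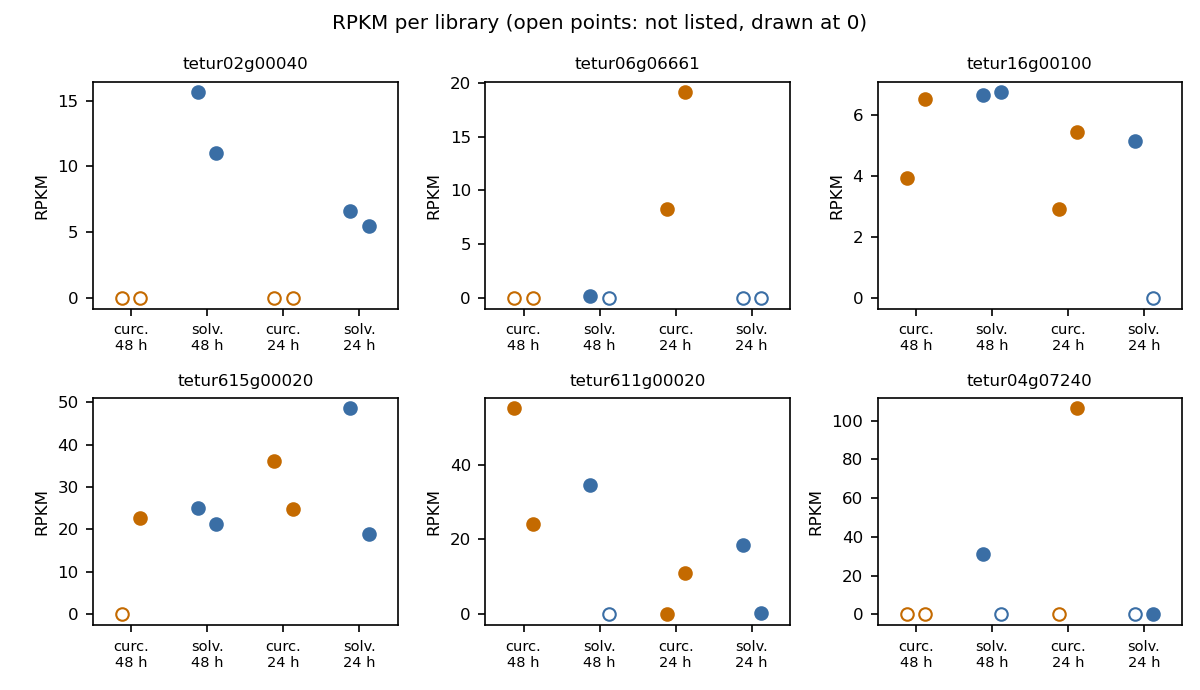
RPKM of the 6 genes drawn (1 panel each) in the 4 groups, with 1 point per library and open points at 0 for libraries that did not list the gene. The panel of tetur02g00040 has open points in all 4 curcumin libraries and in 0 solvent libraries, and the other panels mix open and filled points within a group or between times.

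Between times within the curcumin group, 8 members were missing in both libraries at 48 h and listed in both at 24 h, and 2 were missing in both at 24 h and listed in both at 48 h. The 8 were tetur06g06661, tetur437g00020, tetur288g00010, tetur33g00360, tetur20g02870, tetur24g00700, tetur05g06160 and tetur01g03000. The bound at 48 h against 24 h was at least 17.4-fold lower for tetur437g00020, 12.9-fold for tetur288g00010, 8.49-fold for tetur24g00700, 7.78-fold for tetur33g00360 and 4.66-fold for tetur20g02870. The last of the 8, tetur01g03000 (150 bp), had 0 and 0 reads at 48 h and 28.1 and 11.4 at 24 h in curcumin-treated mites, at least 13.2-fold lower at 48 h, and 9.31 and 0 at 48 h and 0 and 6.22 at 24 h in solvent-treated mites. All of these absences at 48 h rest in part on the library that missed the most members.

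The 2 genes with the opposite order within curcumin were tetur16g02830, given above, and tetur01g10050 (888 bp). The gene tetur01g10050 had 69.8 and 25.8 reads at 48 h and 0 and 0 at 24 h in curcumin-treated mites, and 55.0 and 0 at 48 h and 0 and 0 at 24 h in solvent-treated mites. Summed over replicates, it was at least 31.8-fold higher at 48 h within curcumin. Within solvent, replicate 2 at 48 h was at 0 like both libraries at 24 h, so no bound is given there. Within the solvent group, tetur03g03690 was missing in both libraries at 48 h and listed in both at 24 h, at least 11.1-fold lower at 48 h. The reverse held for tetur20g00090, at least 13.4-fold higher at 48 h, and for tetur02g05380, at least 10.1-fold higher at 48 h. For tetur02g05380, solvent replicate 1 at 48 h held 2.07 reads, within the reads that a count of 0 allows. Time thus separated the listings of 10 members within curcumin and 3 within solvent, and in 0 of them did both treatments follow the split. For tetur16g02830 both values at 48 h within curcumin were within the 3 reads that a count of 0 allows, so no difference was detectable there.

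The member that followed the replicate number, tetur17g03730 (153 bp), had 0 and 30.3 reads in curcumin-treated mites at 48 h, 0 and 0.862 in solvent-treated mites at 48 h, 0 and 1.33 in curcumin-treated mites at 24 h, and 0 and 18.4 in solvent-treated mites at 24 h. Close to it, tetur08g06750 (399 bp) had 0 and 0 reads in curcumin-treated mites at 48 h, 0 and 27.9 in solvent-treated mites at 48 h, 0 and 42.7 in curcumin-treated mites at 24 h, and 0 and 65.6 in solvent-treated mites at 24 h. No library numbered 1 listed either gene. For tetur17g03730, the values 0.862 and 1.33 were within the reads that a count of 0 allows, so no difference between replicates was detectable in those groups. tetur08g06750 was singled out after its values were seen, and neither the labels nor the methods say whether replicates of the same number shared a preparation.

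At the other end, 3 members were listed in 1 library only, each time in the curcumin group at 24 h. The gene tetur320g00020 (885 bp) had 52.7 reads in replicate 1, tetur35g01270 (1128 bp) had 22.3 in replicate 1, and tetur22g02970 (591 bp) had 29.2 in replicate 2. For each of them the other replicate of that group was at 0.

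The members were low and short beside the other genes of the same length and read limits. Their highest library held 28.0 reads in the median, against 234 for the 11273 genes listed throughout, and 113 of the 137 peaked below 50 reads, 24 at 50 or more and 9 at 100 or more. Their median length was 425 bp (range 146 to 2511 bp), against 1395 bp, and 82 (59.9%) were at most 500 bp long, against 11.4% of the others. At most 200 bp were 22 members (16.1%), against 1.53% of the others. The rule used the reads but not the length beyond its lower limit, and short models hold fewer reads at the same RPKM. By identifier, the members lay on 52 different numbered sequences of the assembly, and 13 (9.49%) were on sequences numbered 100 or higher, against 196 (1.74%) of the others. No coordinates or strand were at hand.

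The estimated reads were seldom whole numbers, so models could hold parts of reads. Within 0.005 of a whole number were 1.57% of listed member values and 1.15% of those of the other genes, and 33 of the 828 listed member values were below 1 read. Neither the labels nor the methods say how reads that fit several models were divided. The nearest gene by identifier was taken as a neighbour for 132 members. The coefficient of variation of reads scaled to library size over the 8 libraries (SD divided by mean) had a median of 1.02 for the member, 0.302 for the neighbour and 0.361 for their sum, against 0.159, 0.189 and 0.122 for the 11190 other genes. The sum varied less than both genes for 46 members (34.8%), against 6555 (58.6%) of the other genes. Members were chosen for reads in 1 library and 0 in another, so their own spread was high by the choice. The spread of a sum also follows the gene with more reads. These values therefore cannot show whether reads were shared between models, and the difference was not tested. In 2 members (1.52%) the neighbour was a member too, against 79 (0.706%) of the others, and these came from tetur01g15810, tetur01g15820 and tetur01g15830.

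The limits of the choice were close on both sides. The members with the fewest reads in their highest library were tetur09g04970 with 20.1, tetur35g01040 with 20.1 and tetur05g09307 with 20.2, and the genes just below were tetur92g00020 with 19.97, tetur13g01610 with 19.95 and tetur02g11950 with 19.94. The shortest members were tetur02g05380 and tetur05g07850 with 146 bp and tetur16g02460 with 148 bp, and just outside, tetur107g00010, tetur16g01420 and tetur17g01100 had 144 bp. A listed value could be far below 1 read. Among genes listed in all 8 libraries, the lowest were tetur22g02010 with 0.243, tetur16g03710 with 0.353 and tetur01g02890 with 0.369 reads in a library, and 30 such genes fell below 1 read somewhere. A further 2252 genes of 146 bp or more were missing somewhere and stayed below 20 reads, and 29 genes shorter than 146 bp were missing somewhere with 20 reads or more.

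Of the 137 members, 105 passed edgeR's filter on low counts and were tested, so the counts below say nothing of the other 32. A member passed through the libraries in which it was high. For curcumin against solvent at 48 h, edgeR called 0 members at a false discovery rate of 0.05, where 0.18% of the 12227 genes tested were called, and 15 of the 105 had an unadjusted p below 0.05, against 959 of all 12227 genes. At 24 h it called 0 members, where 0.0% of all genes were called, and 12 had an unadjusted p below 0.05, against 903 of all genes. For 48 h against 24 h it called 1 member within curcumin, the lower tetur06g06661, where 0.425% of all genes were called (0.254% lower), and 0 within solvent, where 0.188% were called. The unadjusted p was below 0.05 for 22 members within curcumin and 20 within solvent, against 1561 and 1229 of all genes. For the average of both times it called 0 members beside 0.0491% of all genes, and for the difference between the curcumin effects at 48 h and 24 h it called 0 beside 0.0%, with 14 and 18 members at an unadjusted p below 0.05, against 862 and 991 of all genes. The rule used the same values in the same libraries, so nothing is read from these counts.

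DESeq2, a second count test, was run on members that passed the same filter through the libraries in which they were high. Nothing is read from its counts or calls either. It called 5 members at 48 h, where it called 0.728% of all genes. These were tetur03g03690, higher in curcumin-treated mites, and tetur02g00040, tetur288g00010, tetur437g00020 and tetur04g07240, lower in them. The last of these was at 0 in all libraries at 48 h but 1 solvent replicate. At 24 h it called tetur06g06661 and tetur41g00010, both higher in curcumin-treated mites, beside 0.229% of all genes. The gene tetur41g00010 (1283 bp) had 54.4 and 24.9 reads in curcumin-treated mites at 24 h and 0 and 5.58 in solvent-treated mites at 24 h, so 1 of its 2 solvent replicates did not list it. Over time it called 4 members within curcumin, all lower at 48 h (tetur04g07240, tetur06g06661, tetur437g00020 and tetur288g00010), beside 1.62% of all genes, though it gave an adjusted p to 47 members only. Within solvent it called 3, tetur20g00090 and tetur12g01150 higher and tetur03g03690 lower at 48 h, beside 0.998% of all genes. For the average of both times it called 0 members, beside 0.466% of all genes, and gave an adjusted p to 15 of them only, since it sets low genes aside. For the difference between the curcumin effects at 48 h and 24 h it called 4, tetur03g03690 with a positive difference and tetur04g07240, tetur20g00090 and tetur288g00010 with a negative one, beside 0.45% of all genes.

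Genes chosen for 20 reads in one library and 0 in another must differ between libraries, so their log2 fold changes are given as a description. Over the 105 tested, the median size of the log2 fold change was 1.21 at 48 h and 1.01 at 24 h, against 0.17 over all genes at each time. Their signed median was 0.15 at 48 h and -0.02 at 24 h, and at 48 h it was -1.05 without replicate 2 of the curcumin group, when only the library with the most absent members stood for that group. Values at 0 enter these fits with a small prior count, so a single fold change of such a gene is no bound.

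Whether libraries of a group overlapped was counted on RPKM for all 137 members. At 48 h, curcumin and solvent libraries did not overlap for 35 members (25.5%), 13 higher and 22 lower in curcumin-treated mites, where 33.3% of all 11412 genes did not overlap (15.7% higher and 17.6% lower). At 24 h this held for 54 members (39.4%), 22 higher and 32 lower, where 43.4% of all genes did not overlap (20.6% higher and 22.9% lower). In both comparisons the share of members was below that of all genes. In 8 members the libraries did not overlap at either time and the direction turned, beside 7.98% of all genes.

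Between 48 h and 24 h, 52 members (38.0%) did not overlap within curcumin and 50 (36.5%) within solvent, beside 45.8% and 41.3% of all genes. Over all 4 libraries against 4, curcumin and solvent did not overlap for 5 members (3.65%), beside 2.66% of all genes. These were tetur66g00140, higher in curcumin libraries, and tetur02g00040, tetur05g03240, tetur05g07850 and tetur41g00310, lower in them. Beside tetur02g00040, the lower genes were low but mostly listed. The gene tetur41g00310 (381 bp) had 0 and 2.34 reads in curcumin-treated mites at 48 h, 9.56 and 24.6 in solvent-treated mites at 48 h, 5.86 and 4.67 in curcumin-treated mites at 24 h, and 8.72 and 21.5 in solvent-treated mites at 24 h. The gene tetur05g03240 (672 bp) had at most 2.53 reads in a curcumin library and at least 3.35 in a solvent library. The gene tetur05g07850 (146 bp) had at most 4.50 and at least 5.11. The times did not overlap for 8 members (5.84%), beside 7.33%, of which 5 were higher and 3 lower at 48 h. The higher ones were tetur03g08200, tetur08g02400, tetur12g01150, tetur19g01170 and tetur36g01020, and the lower ones were tetur05g07290, tetur27g01560 and tetur37g00760. The gene tetur12g01150 (411 bp) had 6.15 and 13.6 reads in curcumin-treated mites at 48 h, 21.8 and 29.3 in solvent-treated mites at 48 h, 1.52 and 0 in curcumin-treated mites at 24 h, and 1.29 and 0.716 in solvent-treated mites at 24 h. The gene tetur08g02400 (321 bp) had 14.0 and 9.23 reads in curcumin-treated mites at 48 h, 20.9 and 18.7 in solvent-treated mites at 48 h, 2.78 and 3.52 in curcumin-treated mites at 24 h, and 0 and 2.99 in solvent-treated mites at 24 h. In both, all 4 libraries at 24 h held few reads and 1 of them held none. In the other direction, tetur37g00760 (1125 bp) had 0 and 5.72 reads in curcumin-treated mites at 48 h, 4.70 and 0 in solvent-treated mites at 48 h, 12.4 and 21.9 in curcumin-treated mites at 24 h, and 16.1 and 10.9 in solvent-treated mites at 24 h. In genes of this kind, the values at the 2 times did not overlap although the absence itself fell in 1 or 2 of 4 libraries. Such genes were no more frequent among the members than among all genes. In edgeR (quasi-likelihood test, Benjamini-Hochberg adjustment) the smallest adjusted p among these 8 over the comparisons of time was 0.0889, for tetur12g01150 within solvent. Libraries numbered 1 and 2 did not overlap for 3 members (2.19%), beside 2.98%, namely tetur15g00090, tetur17g03730 and tetur35g00580. Each of these shares lay near that of all genes.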

How the data were processed

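Each library of whole mites was deposited as 1 listing of genes with the model length, estimated reads and RPKM. Per the study's methods, the authors enriched polyadenylated RNA, sequenced it by Ion Proton, and mapped the reads to the Tetranychus urticae genome with T-Map. The deposited estimated counts (expected reads per gene) are not whole, and neither labels nor methods name the tool that made them or the version of the gene models. The deposited RPKM values were scaled by the authors for length and depth. Columns of comparisons were not used. The members and lists were chosen with earlier results of these data known.

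Estimated reads were rounded for edgeR 4.0.16 (filterByExpr, TMM scaling, robust quasi-likelihood test, 4 groups, all 8 libraries, 12227 genes, false discovery rate 0.05) in R 4.3.3. DESeq2 1.42.0 and limma 3.58.1 on log2(RPKM + 1) or log2(RPKM + 0.1), with a mean RPKM of at least 0.5, were alternatives, as were no filter, library-size scaling, a replicate block, leaving out each library, 10 or 50 reads, a length over 200 bp, absence below 1 read and a rule on RPKM. Fits were tested on simulated data. Bounds use 3 reads for a library, or a sum of libraries, at 0 and cover counting error only. They do not cover the spread between replicates, which reached at least 179-fold within a group (tetur04g07240, curcumin at 24 h). Genes were named by pattern of absence, by reads, by nearness to the limits, or because a description or primers existed. Genes behind small counts were named after their values were seen. Overlap was counted on RPKM, and bounds used reads scaled to the sum of estimated reads of each library.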

Additional observations from a re-analysis of the deposited data

Results flagged for a closer look

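In 8 members (5.84%, beside 7.98% of the 11412 genes) the curcumin libraries lay wholly on one side of the solvent libraries at 48 h and wholly on the other side at 24 h. In another 8 members they lay on the same side at both times. The difference between the 2 RPKM differences (curcumin minus solvent, 48 h minus 24 h) was 38.0 for tetur418g00020, 8.4 for tetur12g04470, 5.85 for tetur13g03350, 2.82 for tetur03g03690, 1.67 for tetur01g01400, -2.06 for tetur24g00700, -2.86 for tetur20g00090 and -3.52 for tetur20g02870. By edgeR's quasi-likelihood test of the difference, with Benjamini-Hochberg adjustment, the adjusted p was 0.232 for tetur20g00090, 0.389 for tetur03g03690, 0.57 for tetur01g01400 and 0.598 for tetur12g04470 and tetur418g00020. The genes tetur13g03350, tetur20g02870 and tetur24g00700 did not pass the filter on low counts, and without that filter edgeR called 0 of 15676 genes for this difference. DESeq2 called tetur20g00090 (adjusted p = 0.0158) and tetur03g03690 (adjusted p = 0.0273), and also tetur288g00010 and tetur04g07240, whose libraries did not all change sides. The members were chosen on the same values, so nothing is read from these calls.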

How the results depend on the processing

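The number of members changed with the limits of the choice. It was 407 at a minimum of 10 reads, 24 at 50 reads and 680 where a minimum of 1 RPKM replaced the reads, and between 112 and 127 when each library was left out. Genes missing in 1 library only then numbered 189, 16 and 232 (in the order of those 3 limits), genes listed in 1 library only 6, 1 and 27, and combinations with the replicates split 601, 30 and 1073. Members missing in both curcumin libraries and listed in both solvent libraries at 48 h numbered 14, 0 and 28, and the reverse 11, 0 and 30. At 24 h the first kind numbered 12, 1 and 31, with 4 where absence meant under 1 read and 1 among models over 200 bp, and the reverse 8, 1 and 17. The share of split combinations stayed between 72.7% and 84.0% over these settings. Genes missing in all 4 curcumin and listed in all 4 solvent libraries numbered 1, 0 and 2, with 0 among models over 200 bp, and the reverse numbered 1, 0 and 1.

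DESeq2 called 5 members at 48 h, 2 at 24 h, 4 for time within curcumin and 3 for time within solvent. The members were chosen on the same values, so nothing is read from these counts or those that follow. With either pseudocount limma called 1 at 48 h and 1 for the average of both times, and with the smaller one 1 at 24 h, each time tetur02g00040. Scaling by library size alone called 1 for the average, also tetur02g00040, and without the filter 0 were called within curcumin. Leaving out each library in turn gave between 0 and 1 members at 48 h, 0 at 24 h, between 0 and 1 within curcumin, between 0 and 2 within solvent and between 0 and 1 for the average. The calls gained were tetur03g03740 at 48 h without solvent replicate 1 at 48 h, tetur66g00140 at 48 h, within solvent, for the average and for the difference between the effects at 48 h and 24 h without solvent replicate 2 at 48 h, and tetur05g06160 within solvent without that library. These left a group with 1 library, assumed to vary like the others. Over all genes, DESeq2 called 89, 28, 198, 122 and 57 (48 h, 24 h, time within curcumin, time within solvent, average), against 22, 0, 52, 23 and 6 for edgeR. limma on log2(RPKM + 1) called 32, 0, 32, 1 and 32, limma on log2(RPKM + 0.1) 28, 1, 24, 1 and 17, and edgeR without the filter 10, 0, 22, 13 and 5.

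The correlation of same-numbered deviations lay between -0.0875 and 0.164 over 6 pairs of groups, highest between curcumin and solvent at 48 h. These values alone cannot show whether libraries of the same number were paired. With a replicate block, edgeR called 2 members for time within curcumin (tetur06g06661 and tetur437g00020) and 0 in each other comparison. At 8033325 reads or more a library, values of a few reads cannot separate absence from low abundance.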
